A study of Arabidopsis thaliana with 8 samples.

Results

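The 12 consecutive plates TA52 to TA63 of a tiling array of Arabidopsis thaliana chromosome 4 hold both low and high log ratios of an H3K4me2 chromatin immunoprecipitation and are called the zone here. A tile belongs to the zone when its ID has the series letters TA and a plate number of 52 to 63 and it has a value on all 8 arrays. This holds for 1141 of the zone's 1152 tiles, which are 5.36% of the 21296 tiles with a value. The plate limits were chosen from the log ratios themselves, so the levels below describe the zone and are not a test of it. The array compared immunoprecipitated DNA with input DNA of the same chromatin, from whole, untreated C24 seedlings that were 10 days old and had been kept in liquid medium, with 50 µg per replicate. There were 4 replicates, I to IV, each on a pair of arrays with exchanged dyes, and the labels do not say whether they came from separate cultures. A whole seedling pools all its cell types, so a log ratio is an average over them, and no expression was measured that could check the tissue. The wider study followed the epigenome of hybrids between the accessions Col-0, C24 and Cvi, and only C24 itself is described here.

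Dimethylation of lysine 4 of histone H3 (H3K4me2) is a chromatin mark that, as textbook background, covers genes of euchromatin in plants and is scarce in the transposon-rich heterochromatin around centromeres, where dimethylation of lysine 9 and DNA methylation take its place. Chromosome 4 of A. thaliana is known for a heterochromatic knob on its short arm besides the heterochromatin next to its centromere, and genes stand among transposable elements where heterochromatin gives way to the arms. Tiles were not matched to genes or coordinates, so the zone was not placed on this map and tiles are named by plate, row and column (TA52A01 is plate TA52, row A, column 1). Tiles were read along the rows of each plate, and this numbering was used as the order.

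All values below are deposited log ratios minus the median of their array. The base of the logarithm and the direction of the ratio (IP over input or the reverse) were not given in the sources used here. A tile is therefore said to be above or below the array median, not enriched or depleted. Both arrays of a dye swap hold the same value at every tile, so each replicate counts once and n is 4. The replicates were not equally alike. Across the zone's 1141 tiles, which are not independent replicates, Pearson's r was 0.987 for I with III and 0.986 for II with IV, and from 0.941 to 0.948 in the other 4 pairs. If I with III, and II with IV, share a source, the spread over 4 values is too small, and the call counts are given with these pairs averaged as well.

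The zone lay mostly below the array median but held tiles at every level (the profile of all tiles). Its median was -0.96, -0.94, -0.94 and -0.91 in I to IV, a mean of -0.94 ± 0.02 (SD, n = 4 replicates). Single tiles ran from -4.28 to 3.18, and the middle 50% of them from -1.95 to -0.07. By limma's moderated test against the array median, with Benjamini-Hochberg adjustment over all tiles at 0.05, 205 zone tiles were above and 798 below, and 138 were not called. These are 18.0% and 69.9% of the zone, against 42.2% called above and 42.3% called below over all tiles of the array. Because the zone was delimited on this contrast, nothing is read from that difference. Averaging the like pairs first gave 170 zone tiles above and 733 below, with 37.9% and 38.2% of all tiles called on these sides. In this fit, and in the fit centred on the mode below, limma used a common spread for all tiles. A tile's own spread then did not enter its call. The split depends on the zero point: with the values as deposited 89 zone tiles were called above 0 and 917 below, and with each array centred on the mode of its values 100 were called above and 942 below. The whole array moved likewise: of all called tiles, 27.2% and 28.4% were above in these 2 settings, in place of 49.9%. Among the tiles named below, the means of TA53G04, TA54H02, TA55E06, TA55F01, TA56B02, TA56D06, TA56G10, TA57A05 and TA61H06 were above the array median but below 0 under both of these settings. TA52F12, TA53A01, TA54C03, TA55E12, TA55F06, TA62G09 and TA62H06 kept their sign but were no longer called under either. All 4 replicates had the same sign in 1017 of the 1141 tiles, or 89.1%, which is near the 86.2% of all tiles.

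**Figure D1:**
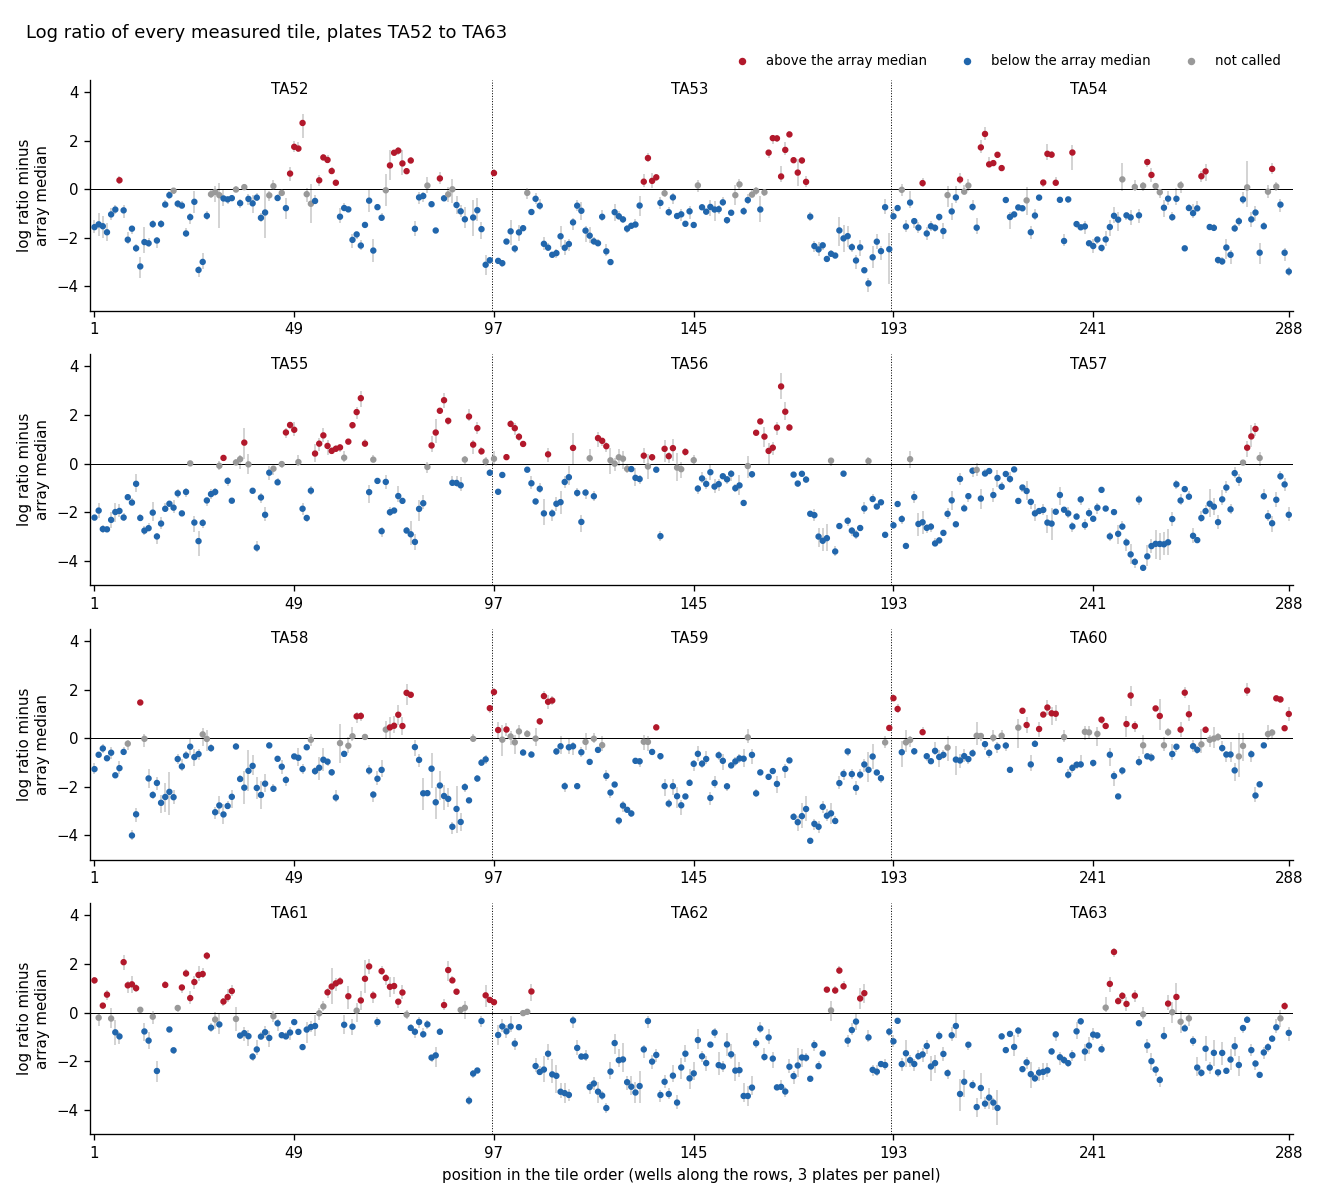
Log ratio minus array median (y axis) of each measured tile of TA52 to TA63 in tile order (x axis, 3 plates per panel). Points are means of 4 replicates, grey bars run from the lowest to the highest replicate, and colours give limma's call. Groups of red tiles above the median stand between long blue stretches, the longest of them on TA57, TA62 and TA63.

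The zone has been called a mixed transition zone. Its levels were mixed, but its plates did not climb steadily from the low plates before it to the higher plates after it (the plot of plate medians). The first plate, TA52, had a median of -0.61 ± 0.14 (SD, n = 4), while the last plates, TA62 and TA63, were among its lowest. It is therefore named here by its plates.

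All 12 plates had a median below 0, and they are taken here from low to high. The lowest were TA62 and TA57. TA62 had plate medians of -1.99, -1.86, -2.03 and -1.94 in I to IV, with 85 of its 96 tiles below the array median and 8 above. TA57 had -1.89, -1.90, -1.90 and -1.81 in I to IV, with 89 of 96 tiles below and 3 above. TA57 was higher than TA62 in 3 of 4 replicates, and their values overlapped, so their order is not settled. TA63 followed at -1.53 ± 0.11, with 80 of 95 tiles below.

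Intermediate medians were those of TA53 (-1.21 ± 0.04), TA58 (-1.16 ± 0.16), TA59 (-1.07 ± 0.07), TA55 (-0.95 ± 0.03), TA54 (-0.85 ± 0.03), TA52 (-0.61 ± 0.14) and TA56 (-0.48 ± 0.06). Compared within each replicate, TA58 was higher than TA53 in 2 of 4 and TA59 higher than TA58 in 2 of 4. The other neighbours in this order kept it in 4 of 4, among them TA56 over TA52, whose values overlapped between replicates. The plates differed more in make-up than these medians show. TA55 had a larger spread over its tiles than any other zone plate, with an SD of 1.51, and held 13 tiles more than 1 above the array median beside 22 tiles more than 2 below it. TA54, with nearly the same median, held 9 and 14 such tiles and had an SD of 1.17.

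The highest plates were TA61 and TA60. TA61 had plate medians of 0.03, -0.21, 0.02 and -0.16 in I to IV, so that I and III lay above 0 and II and IV below. On it 39 of 95 tiles were above the array median and 42 below. TA60 had plate medians of -0.35, -0.19, -0.25 and -0.15 in I to IV, with 26 of 93 tiles above and 44 below, and TA61 was higher than TA60 in 2 of 4 replicates. TA60 held fewer deep tiles than any other zone plate: 2 tiles lay more than 2 below the array median, against 47 on TA62. Its spread, an SD of 0.91 over tiles, was the smallest of the 12. The sharpest change between consecutive plates was that from TA61 to TA62, whose medians stood at -0.08 ± 0.12 on TA61 and -1.96 ± 0.08 on TA62.

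**Figure D2:**
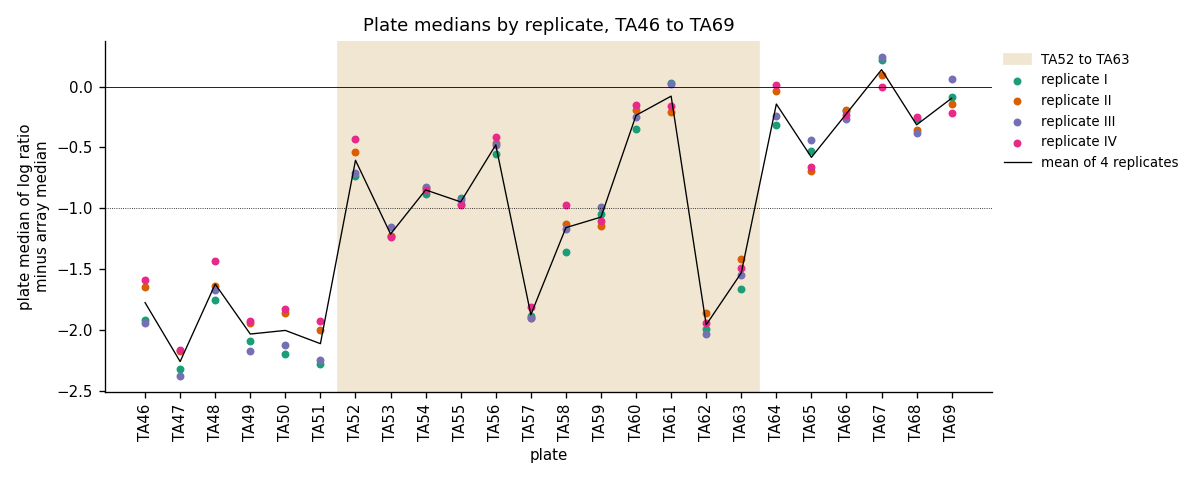
Median log ratio minus array median (y axis) of plates TA46 to TA69 (x axis) in each replicate (points) and their mean (line), with TA52 to TA63 shaded. The dotted line marks -1, and 6 shaded plates have a mean under it. TA61 at -0.08 is followed by TA62 at -1.96.

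In 6 plates the mean of the plate medians was under -1 (TA53, TA57, TA58, TA59, TA62 and TA63), and in 4 of them this held in every replicate. TA58 reached only -0.98 in IV, and TA59 only -0.99 in III. The count depends on the limit and the zero point: 9 plates were under -0.5 and 3 under -1.5, and 10 were under -1 with centring on the mode. Over the whole array 44 of 231 plates had a mean under -1. Just inside this limit was TA59 at -1.07, and just outside it was TA55 at -0.95.

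Set beside the plates around it, the zone stood between stretches that were unlike. Its median of -0.94 ± 0.02 compares with -2.24 ± 0.13 on TA37 to TA51, the plates just before it, and the zone was higher by 1.30 ± 0.12 (SD, n = 4 replicates; 4 of 4 higher). On TA64 to TA99, the plates just after it, the median was -0.01 ± 0.02, and the zone minus these plates gave -0.93 ± 0.02 (4 of 4 lower). On TA31 to TA36, a mixed stretch that, unlike the zone, has low plates on both sides, the median was -0.08 ± 0.03. The zone minus these plates gave -0.86 ± 0.03. All 3 differences exceed the spread between replicates, but the limits of the stretches rest on the same values, so they give sizes only.

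The plot of levels sets the zone's tiles beside those of its neighbours. Tiles more than 2 below the array median made up 23.9% of the zone (273 tiles), against 59.5% of TA37 to TA51, 5.65% of TA64 to TA99 and 13.4% of all tiles. Tiles more than 1 above it made up 8.68% of the zone (99 tiles), against 0.968% of TA37 to TA51, 21.3% of TA64 to TA99 and 22.3% of all tiles. Intermediate levels, from -1 to 0, held more zone tiles than any other class, 334 or 29.3%. It was about as frequent on TA64 to TA99 (30.9%) and less so on TA37 to TA51 (8.49%). Extreme tiles were unevenly spread among the zone's plates: TA55, TA60 and TA61 held 48 of the 99 high tiles, and TA57, TA62 and TA63 held 121 of the 273 deep ones.

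**Figure D3:**
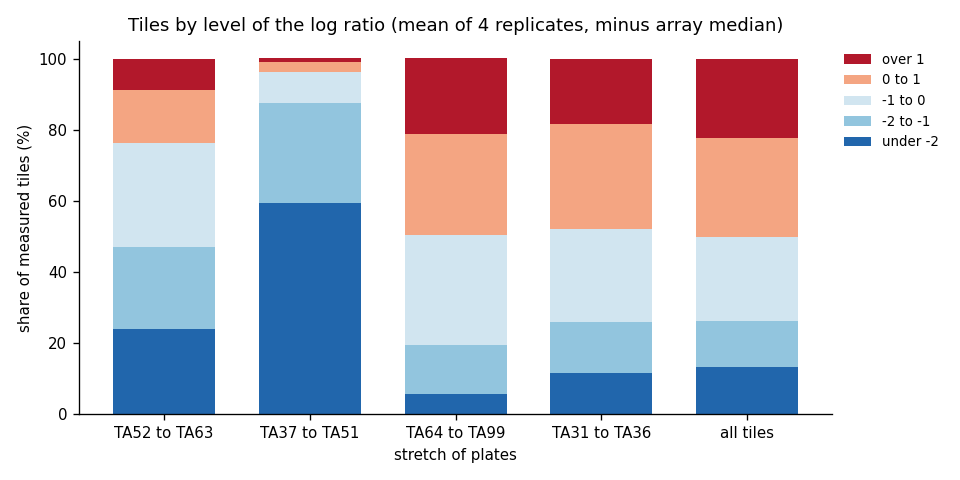
Share of measured tiles (y axis, %) at 5 levels of the log ratio minus array median (colours) in TA52 to TA63, in 3 other stretches of the TA series and over all tiles (x axis). Deep tiles, under -2, make up 23.9% of TA52 to TA63, 59.5% of TA37 to TA51 and 5.65% of TA64 to TA99.

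Tiles above the array median came in short groups. Consecutive called tiles formed 70 runs above the median with a mean length of 2.93 tiles, of which 27 were single tiles and 15 held 5 tiles or more. Those 15 runs held 93 of the 205 tiles. The longest run above, TA53F07 to TA53G04, had 10 tiles and a mean of 1.41, 1.28, 1.51 and 1.18 in I to IV. It reached 2.25 ± 0.09 at TA53F12 and ended at 0.30 ± 0.22 at TA53G04, which was no longer called without I, without III or with the like pairs averaged or taken as a random block.

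The tile highest in the zone lay in another such group, TA56F04 to TA56F12, whose 9 tiles averaged 1.51 ± 0.24 (SD, n = 4). This tile, TA56F10, had 2.68, 3.72, 2.64 and 3.66 in I to IV, so that II and IV were about 1 above I and III. Its plate row, TA56F, was the only 1 of the 96 plate rows of the zone with a median over 1 (1.17 ± 0.21). Both of the next longest runs had 7 tiles. TA61B10 to TA61C04 averaged 1.43 ± 0.07 and peaked in its last tile, TA61C04, at 2.34 ± 0.14. TA55E06 to TA55E12 was flatter, with an average of 0.71 ± 0.18 and a highest tile of 1.16, and its first tile was no longer called without III or with the like pairs averaged or taken as a random block. It was followed by TA55F01, which was not called, and then by more tiles above the median up to TA55F06, so that 13 tiles averaging 1.02 ± 0.08 are joined when 1 uncalled tile does not end a run.

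Other high tiles stood in smaller groups. TA52E03 had 3.0, 3.08, 2.12 and 2.70 in I to IV, and was the highest tile of TA52. TA55F05 (2.69 ± 0.27), TA55H01 (2.61 ± 0.33) and TA63E06 (2.50 ± 0.17) were the other members of the 5 highest with TA56F10 and TA52E03. TA63E06 stood on a plate with only 9 tiles above the median. On TA57, the plate with the fewest such tiles, the highest was TA57H04 at 1.43 ± 0.23. Runs from TA52F12 to TA52G05 (6 tiles, 1.17 ± 0.04) and from TA54B10 to TA54C03 (6 tiles, 1.39 ± 0.05) had means that were nearly equal in all replicates.

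Tiles below the array median formed longer runs. There were 118 of them, with a mean length of 6.76 tiles, and 485 of the 798 tiles belonged to the 20 runs that were at least 10 tiles long. Only 1 run above the median was as long as 10 tiles. The longest run below, TA62A11 to TA62G08, took in 70 consecutive measured tiles and averaged -2.44, -2.08, -2.46 and -2.15 in I to IV. All 4 replicates were low, and II and IV were less so. When 1 uncalled tile does not end a run, the longest is elsewhere, with 107 tiles from TA56G01 to TA57G12 and a mean of -1.93 ± 0.02. Within the run of 70 tiles on TA62 the lowest tile was TA62C04 at -3.92 ± 0.20 and the highest TA62B08 at -0.32.

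The second run below, TA57B10 to TA57G12, had 63 tiles and a mean of -1.94, -1.99, -1.96 and -1.94 in I to IV. Its replicates were closer to each other than those of the run on TA62. It contained the lowest tile of the zone, TA57F01, at -4.31, -4.22, -4.29 and -4.31 in I to IV. The third, TA62H07 to TA63E03, had 57 tiles and averaged -1.90 ± 0.06. It crossed the border between the plates, and its lowest tile, TA63C02, had -4.54, -3.33, -4.64 and -3.16 in I to IV, again lower in I and III. These 3 runs held 190 tiles, or 23.8% of all zone tiles below the median. Between the runs of 70 and 57 tiles lay TA62G09 to TA62H06, in which the highest tile was TA62G12 at 1.73 ± 0.16.

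Shorter low runs held some of the deepest tiles. TA59F03 to TA59H10 had 30 tiles with a mean of -2.11 ± 0.05. In its middle lay plate row TA59G, the lowest of the 96 plate rows, with a median of -3.48, -2.99, -3.41 and -3.15 in I to IV. All 12 tiles of that row were below -1.8, and TA59G05 had -4.23, -4.18, -4.28 and -4.19 in I to IV. The 5 lowest tiles of the zone were TA57F01, TA59G05, TA57E11 (-4.04 ± 0.18), TA58A10 (-4.00 ± 0.19) and TA62C04. The fifth run by length, TA53A10 to TA53C12, had 27 tiles and was shallower, at -1.66 ± 0.08.

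Below the median, runs in the zone were shorter than on the plates before it and longer than on those after it, while runs above were longer than on the plates before it. The mean length of runs below was 6.76 tiles in the zone, 30.9 on TA37 to TA51, 2.92 on TA64 to TA99 and 3.70 on TA31 to TA36. For runs above, the mean was 2.93 tiles in the zone, 1.43 on TA37 to TA51, 3.10 on TA64 to TA99 and 3.49 on TA31 to TA36. Among adjacent tiles that were both called, 80 of 895 pairs in the zone (8.94%) were on opposite sides of the median. The corresponding shares were 2.06% on TA37 to TA51, 17.9% on TA64 to TA99 and 12.4% on TA31 to TA36. Of the 96 plate rows, 56 held called tiles on both sides, 22 had every measured tile below and none had every tile above. Such rows were not counted on other plates. The counts depend on the shares of zone tiles called on each side, 69.9% below and 18.0% above. Runs longer than the distance to the zone's end would be shortened by it, and the length of a run depends on the share of tiles on its side.

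Borders between high and low tiles were sharp at some places and gradual at others (the plot of borders). After TA53F12 the log ratio passed through TA53G04 at 0.30 to -1.13 at TA53G05 and stayed below the median for 22 tiles, to TA54A02, with a mean of -2.26 ± 0.11. The step up with the greatest size between adjacent tiles was that at TA58A11, which had -3.45, -2.86, -3.29 and -2.92 in I to IV, and TA58A12, which had 1.38, 1.51, 1.49 and 1.49. The step was 4.60 ± 0.24 (SD, n = 4), and no replicate of one tile came near a replicate of the other. Just before it, TA58A09 at -0.23 ± 0.18 was followed by TA58A10 at -4.00 ± 0.19, a step of -3.78 ± 0.34. The step down with the greatest size was that from TA61H06 (0.20 ± 0.36, not called) to TA61H07 (-3.62 ± 0.14), of -3.82 ± 0.25. TA61H07 was also the lowest tile of TA61.

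**Figure D4:**
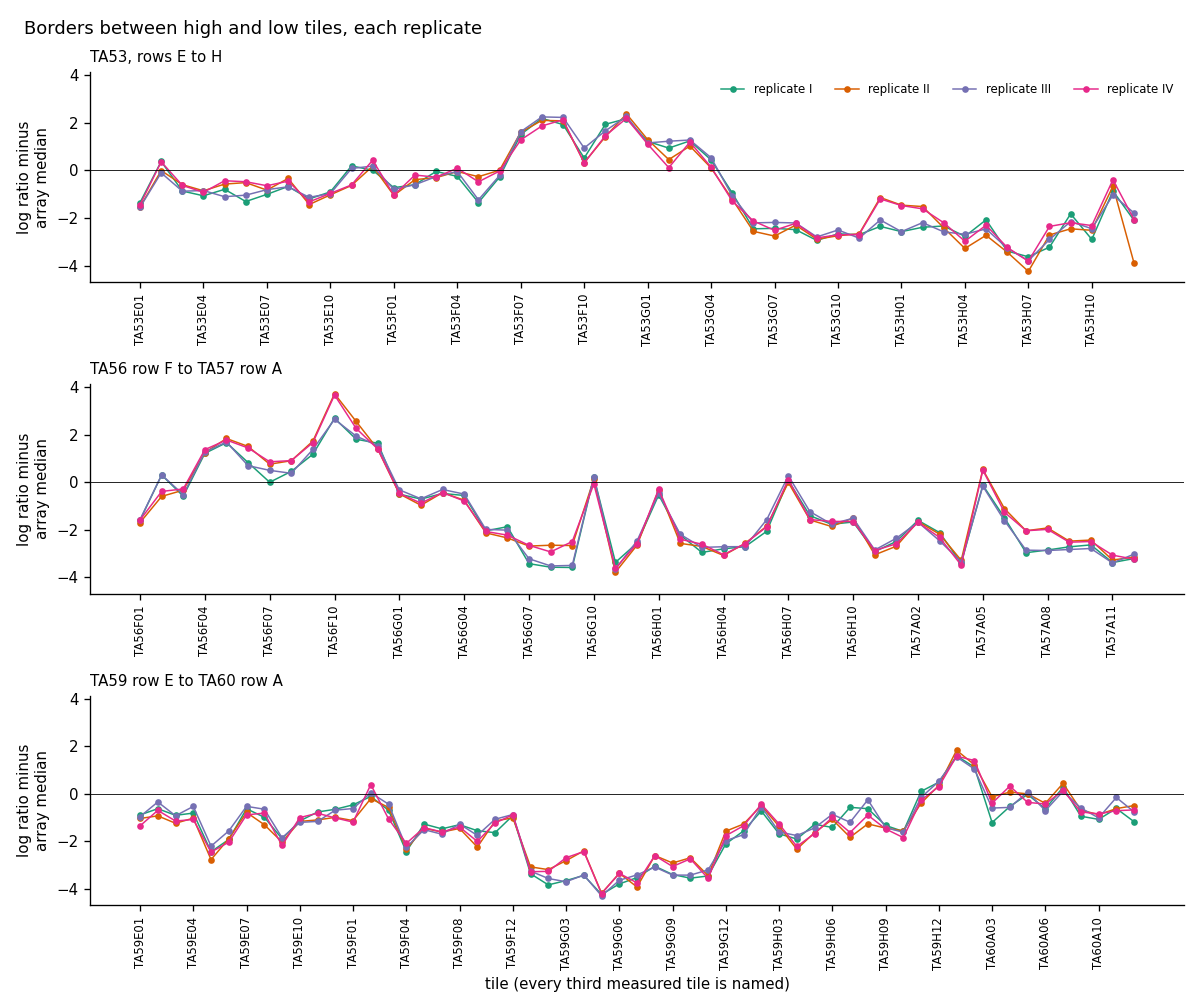
Log ratio minus array median (y axis) of consecutive measured tiles (x axis) in each replicate (coloured lines) around 3 borders. On TA53 the 10 tiles above the median are followed directly by 22 tiles below it, and on TA59 row G all 12 tiles lie under -1.8 in the mean of the replicates.

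Large steps were rare even at a limit of 2, which is below the sizes just given. Of 1140 steps between consecutive measured tiles in the zone, 58 (5.09%) exceeded 2, against 4.99% on TA37 to TA51 and 6.55% on TA64 to TA99. The median size was 0.58 in the zone, 0.60 on TA37 to TA51 and 0.63 on TA64 to TA99. In step size the zone was thus close to both neighbours.

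Some of the greatest steps belonged to lone tiles, defined after the values had been seen as tiles more than 2 above or more than 2 below both neighbours. There were 5 lone high and 4 lone low tiles in the zone. TA53A01 had 0.83, 0.57, 0.74 and 0.52 in I to IV, between TA52H12 at -2.92 and TA53A02 at -2.95. TA56G10 had 0.21, 0.13, 0.23 and -0.08, between TA56G09 at -3.06 and TA56G11 at -3.61, and was not called on either side. The other lone high tiles were TA56B02 at 0.38, TA57E12 at -1.47 and TA60H02 at 1.96, so that 3 of the 5, TA53A01, TA56B02 and TA60H02, were above the median by the test. TA56B02 was no longer called without II, without IV or with the like pairs averaged or taken as a random block, and was at -0.24 with the values as deposited and -0.25 with the mode. Of the lone low tiles, TA56D05 had -2.98, -3.17, -2.75 and -3.01 in I to IV, between TA56D04 at -0.25 and TA56D06 at 0.61. TA55D04 (-3.45 ± 0.20) and TA55F10 (-2.78 ± 0.18) had neighbours that were themselves below the median. TA61B04 (-2.40 ± 0.45) was next to a well without a value, TA61B05. Lone high tiles were 0.438% of zone tiles, against 0.67% on TA37 to TA51 and 0.511% on TA64 to TA99. The lone low tiles were 0.351%, against 0.149% and 0.661%.

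The first 12 tiles, row A of TA52, had a median of -1.52 ± 0.32 (SD, n = 4), against -1.36 ± 0.09 in the 12 tiles just outside, row H of TA51. The first tile, TA52A01, had -1.82, -1.40, -1.78 and -1.25 in I to IV, and TA51H12 before it had -2.28, -1.46, -1.99 and -1.19, so their replicates overlapped. At the other end, the last 12 tiles, row H of TA63, had a median of -1.01 ± 0.03, against 0.57 ± 0.27 in row A of TA64 just outside. The last tile itself, TA63H12, was at -0.83 ± 0.29, and TA64A01 after it was lower, at -1.45 ± 0.55. Changes as large as that from row H of TA63 to row A of TA64 also occurred between consecutive plate rows inside the zone, such as -3.26 into TA56G and 2.28 into TA59A. By plate medians, TA52 was at -0.61 ± 0.14 and TA51 at -2.11 ± 0.18.

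Adjacent tiles of the zone were similar (the plot of similarity by distance). Pearson's r between consecutive measured tiles was 0.71 ± 0.01 (SD, n = 4 replicates; 1140 pairs), 0.55 ± 0.01 between tiles 2 apart, 0.31 ± 0.02 between those 5 apart, 0.19 ± 0.01 for 12 apart and -0.02 ± 0.01 for 96 apart. With each plate's median removed, it was 0.65 ± 0.02 for consecutive tiles and 0.02 at a distance of 12. The tiles share arrays, plates and printing order, and the r also depends on how widely tiles vary in a stretch. For consecutive tiles it was 0.50 ± 0.01 on TA37 to TA51, 0.58 ± 0.02 on TA64 to TA99 and 0.69 ± 0.01 on TA31 to TA36. Read down the columns of the plates, consecutive zone tiles had an r of 0.168 ± 0.005.

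**Figure D5:**
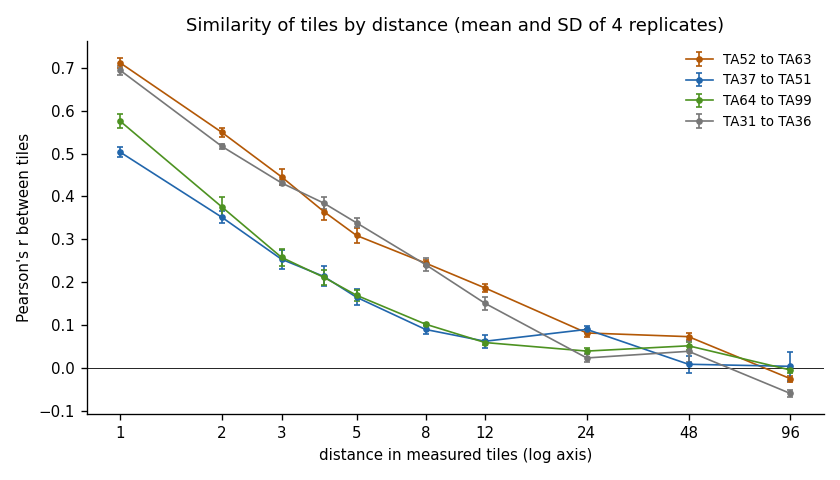
Pearson's r between tiles (y axis) by their distance in measured tiles (x axis, log scale) in TA52 to TA63 and 3 other stretches of the TA series. Points are means of 4 replicates and bars their SD. In TA52 to TA63 the r is 0.71 for consecutive tiles and 0.19 at a distance of 12.

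Pooled over the 12 plates, the log ratio differed between rows and columns of wells. Relative to the median of their plate, zone tiles of row F had a median of 0.44 ± 0.01 (SD, n = 4), those of row B one of -0.35 ± 0.09 and those of row G one of -0.33 ± 0.04. By column the medians ran from -0.26 ± 0.09 in column 5 to 0.27 ± 0.09 in column 2. A row holds 12 consecutive tiles on each of only 12 plates, so the row medians rest on few independent stretches. The SDs are over replicates of the same tiles and do not measure the spread over plates. The next values are relative to the array median and so include the level of the plate. In the mean of the replicates, the median of row F was above 0 on TA53, TA55, TA56, TA60 and TA61. That of row G was under -2 on TA53, TA56, TA59 and TA63, where TA63 as a whole had -1.53. Row F was not high on every plate: its median was -3.00 ± 0.29 on TA57 and -2.56 ± 0.21 on TA62. The medians of these whole plates were -1.87 and -1.96. Nor was row G low on every plate. Its median was 0.29 ± 0.16 on TA52 and -0.55 ± 0.18 on TA58, whose whole plates had -0.61 and -1.16. The part of printing in these values was not tested.

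The spread between replicates was small beside the range of levels and much the same at all of them. The SD of a tile over the 4 replicates had a median of 0.21 in the zone and 0.22 over all tiles. It was 0.23 for tiles more than 2 below the array median and 0.19 for tiles more than 1 above it. The replicates did differ in how low the deep tiles lay: among tiles under -2, II minus I had a median of 0.19 and IV minus III one of 0.16. Between -1 and 0 these medians were -0.02 and 0.03. By plate, II minus I ran from -0.08 on TA53 to 0.35 on TA62, and IV minus III from -0.04 on TA53 to 0.30 on TA62. The difference III minus I stayed within -0.05 (TA52) and 0.11 (TA58).

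A few tiles differed far more between replicates. TA58H04 had -3.88, -1.95, -3.82 and -1.98 in I to IV, and TA52D06 had -1.72, 0.01, -1.99 and -0.14. In TA54H02 the signs differed, with 0.58 in I and 1.15 in III beside -0.70 in II and -0.74 in IV. In these tiles I resembled III, and II resembled IV. TA53H12 was different: II alone was at -3.91, and I, III and IV were at -2.11, -1.79 and -2.07. Levels of such single tiles are uncertain to the extent of these gaps.

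Wells without a value were few. The 11 zone tiles left out lay on TA52, TA56, TA58, TA59, TA60, TA61 and TA63, with 3 of them on TA60. They were skipped in runs and steps, and no value was filled in.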

How the data were processed

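Per the labels' protocols, IP and input DNA were amplified, labelled with the dyes Cy3 and Cy5 without an indirect step, and hybridised to 8 two-channel arrays in 4 dye swaps. The deposited table holds log ratios. Software, background correction and normalization were not given in the sources used here, and signal over background is unknown. The authors' values were not centred (array medians from -0.89 to -0.35) and are the same in both arrays of a swap, so each replicate's common value was used once, minus its median over 21296 tiles. The 39 control features had no value.

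Each tile's mean was tested against 0 on all tiles with limma 3.58.1 (R 4.3.3; lmFit and eBayes, 3 residual degrees of freedom, Benjamini-Hochberg, 0.05). Python 3.11.15 served for all else (pandas 2.3.3, numpy 2.4.6, scipy 1.17.1 for the mode, matplotlib 3.10.9). The limma fit was tried on simulated replicates that were independent of each other. It could therefore not show how the calls fare when replicates come in like pairs. The run count was tried on a short made-up list. The p-values cover no more than the spread among these samples, which may be technical, and the number of arrays limits the precision. The zone, the other stretches and the settings were chosen with earlier results of these data known. Named tiles are the 5 highest and 5 lowest, the highest and lowest of each plate, the ends of the 5 longest runs on each side, the 5 greatest steps each way and the zone's ends. Others, such as lone tiles and those most variable between replicates, were chosen after their values were seen. Genes and annotation classes were not analysed here.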

Additional observations from a re-analysis of the deposited data

Results flagged for a closer look

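Among 91 sets of 4 replicate values examined (medians, differences, runs and 64 named tiles), 1 had a replicate set apart from the others. For 4 independent values chance alone sets apart about 1 in 20. That share need not hold here, since I was like III, II was like IV, and the sets share tiles. It was the median of plate TA53, at -1.22, -1.23, -1.15 and -1.24 in I to IV, in which the gap between III and the nearest other replicate was 0.845 of the whole range. The whole range is only 0.08.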

How the results depend on the processing

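The choice of zero moved the results most. The 205 zone tiles above became 89 with values as deposited and 100 with each array centred on its mode. Of the called zone tiles 8.85% and 9.60% were then above, in place of 20.4%. Over all tiles of the array this share fell as well, to 27.2% and 28.4% from 49.9%. In these 2 settings all tiles together had a median of -0.61 and -0.63, and the zone one of -1.56 and -1.57. With averaged replicate pairs the zone's counts were 170 and 733, and 900 of the 1003 calls were shared. Scaling, quantile normalization, a minimum change of 0.58 and 2 kinds of random block gave 154 to 240 above and 701 to 841 below. The first block was a number string in the array titles that I shares with II, and III with IV. The second was the like pairs (I with III, II with IV). The highest counts, 240 and 841, came from the first block, with an estimated correlation of -0.769. A negative correlation makes the error of the mean smaller and so raises the counts. The low plates numbered 3 with a limit of -1.5, 9 with -0.5 and 10 with centring on the mode. Zone minus TA37 to TA51 was 1.15 with means over tiles.

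Read down columns, tiles formed 164 runs above (longest 4) and 220 below (longest 31), and the r of consecutive tiles was 0.17; with plate medians removed it was 0.65. With 1 uncalled tile bridged, a setting added after seeing the data, 74 runs lay below, the longest of 107 tiles (TA56G01 to TA57G12).

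Leaving out a replicate gave 185 to 195 zone tiles above and 776 to 780 below, a zone median of -0.95 to -0.93, and 54 to 70 tiles in the longest run below. Of 64 named tiles, 53 kept their direction and call under 11 settings. TA53G04 was at -0.32 without centring and -0.33 with the mode, TA55E06 at -0.21 and -0.22, TA56D06 at -0.011 and -0.024, TA56G10 at -0.50 and -0.51, TA61H06 at -0.42 and -0.43, and TA57A05 at -0.44 and -0.45. No paired analysis was possible because there is 1 group of samples and no other to share its replicate numbers. Differences between stretches were taken within each replicate.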
